A study of Mus musculus with 14 samples.

Results

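The 8 genes Clec4d, Clec4e, Clec4n, Clec7a, Cd300lf, Siglece, Klra17 and Igsf6 encode cell surface receptors of myeloid cells, the blood cell lineage of neutrophils, monocytes and macrophages. They were taken as every probe set whose platform gene symbol was 1 of these 8 names, which gave 10 of the 45101 probe sets on the array and 8 of 18194 genes. The genes had been chosen by their measured values in these same arrays, so the differences between groups below are a description, and no test of them is reported. The study measured RNA from whole lungs of BALB/c mice on 14 Affymetrix mouse arrays. In 4 arrays (4T1) the mice carried 4T1 cells, a metastatic mouse breast carcinoma line, in the fourth mammary fat pad. In 5 arrays (67NR) they carried 67NR cells, a nonmetastatic breast carcinoma line, at the same site, and in 5 arrays (normal) naïve mice had received PBS without cells. Lungs were flushed with PBS to clear the vessels of blood, and those of tumour-bearing mice were taken 6 days after inoculation or at a tumour size of about 50 mm3. Each class of tumour is a single cell line, so metastatic ability and cell line cannot be told apart. The labels number the samples without saying that each came from a separate mouse, and the p-values thus rest on a spread between samples that may be technical.

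Pattern receptors of the C-type lectin family bind sugars and lipids of microbes and of dying cells. Clec4e (Mincle), Clec4d (MCL, also called Dectin-3) and Clec4n (Dectin-2) lack a signalling tail of their own and pair with the adaptor Fcer1g, whereas Clec7a (Dectin-1, the receptor of fungal beta-glucan) carries its own activating motif, and these receptors signal through the kinase Syk and the scaffold Card9 to cytokine genes. Cd300lf, Siglece (a receptor of sialic acids) and Klra17 (Ly49Q) are inhibitory: their tails hold motifs that recruit phosphatases such as Ptpn6. Igsf6 is a small immunoglobulin-type membrane protein of leukocytes whose ligand is not well known.

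The promoters of 4 of the 6 members whose 4T1 arrays all stood above the rest are shown, with both lectins of the pair and a pair of inhibitory receptors, so that their upstream letters can be set side by side. RefSeq promoter windows (mouse build GRCm38.p6) were matched for 7 of the 8 genes, and the 250 bases before the start are printed 5′ to 3′ on the gene's own strand. Capitals mark GAGGAA or its reverse complement TTCCTC, the core of the PU box that PU.1, the master regulator of myeloid genes, and other ETS factors bind. The windows are Clec4d at chr6:123261857-123262106 (plus strand), Clec4e at chr6:123289872-123290121 (minus strand), Klra17 at chr6:129876673-129876922 (minus strand) and Cd300lf at chr11:115133993-115134242 (minus strand).
Clec4d: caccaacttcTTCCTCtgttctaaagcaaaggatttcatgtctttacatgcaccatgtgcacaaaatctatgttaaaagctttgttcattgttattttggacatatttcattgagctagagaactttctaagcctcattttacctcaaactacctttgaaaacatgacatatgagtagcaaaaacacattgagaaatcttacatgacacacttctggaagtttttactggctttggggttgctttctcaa
Clec4e: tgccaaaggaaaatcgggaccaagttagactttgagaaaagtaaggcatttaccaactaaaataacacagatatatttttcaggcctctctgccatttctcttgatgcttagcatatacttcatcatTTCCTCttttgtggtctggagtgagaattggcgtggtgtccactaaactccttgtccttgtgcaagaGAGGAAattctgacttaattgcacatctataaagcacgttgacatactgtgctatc
Klra17: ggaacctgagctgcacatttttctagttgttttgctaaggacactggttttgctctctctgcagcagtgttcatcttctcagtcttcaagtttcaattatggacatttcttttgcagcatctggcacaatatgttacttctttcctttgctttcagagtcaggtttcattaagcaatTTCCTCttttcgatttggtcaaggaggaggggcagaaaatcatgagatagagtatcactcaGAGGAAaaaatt
Cd300lf: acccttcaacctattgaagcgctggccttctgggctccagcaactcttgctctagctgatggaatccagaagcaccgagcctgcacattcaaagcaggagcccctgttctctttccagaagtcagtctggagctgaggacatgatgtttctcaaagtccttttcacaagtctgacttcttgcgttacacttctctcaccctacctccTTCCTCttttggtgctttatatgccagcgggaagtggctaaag
The motif GAGGAA, sought on both strands, was present upstream of 7 of the 7 genes. Its match began 240 bases before the start in Clec4d, 123 and 56 in Clec4e, 73 and 12 in Klra17, and 43 in Cd300lf. In the windows not printed it began 87, 36 and 11 bases before the start in Siglece, 39 in Igsf6, and 96 or 90 in Clec7a, which has a pair of annotated starts. Among all 32851 promoter windows of the same length 23.25% held it, and counted by gene it was upstream of 6986 of 27025 genes (25.85%). It was upstream of 56 of 106 relatives and signalling genes of these receptors with a window (52.83%) and of 17 of 25 neutrophil marker genes (68%). A loose form of the C/EBP site, TTNNGNAA, sought on both strands, was upstream of 6 of the 7 genes, all except Clec7a, against 36.85% of windows, and it overlapped itself in Igsf6 and a GAGGAA match in Siglece. The AP-1 letters TGANTCA, on both strands, were upstream of 0 of the 7 genes, against 6.75% of windows. These motifs were selected after the sequences had been seen, and a match is a description of letters, not a bound site.

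Values are probe set intensities, the brightness of the set of probes that stands for a transcript, on a linear scale as deposited. Array medians lay between 113 and 116. Changes are differences of mean log2(intensity + 16), with the standard error (SE) of a limma model over all 14 arrays, and this scale understates the change of dim genes. The test covered 10916 of 18194 genes, those in the upper 60% by mean level. Of the 8 members, Clec4d, Clec4n, Clec7a and Cd300lf passed that filter, and Clec4e, Siglece, Klra17 and Igsf6 lay under it, so for them only the values and an SE from the fit without the filter are given. A probe set's intensity depends on its probes as well as on its transcript, so levels were not ranked between genes. In whole lung, fewer cells of a type and less RNA per cell cannot be told apart.

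The activating lectins split into a pair that was several-fold higher in 4T1 lungs and a pair that was not. Clec4e had 2 probe sets of nearly equal mean level. The set used for the gene, which led by its mean log2 value but was the dimmer of them in every 4T1 array, read 213, 196, 298 and 214 in the 4 4T1 arrays, 96.5, 53.8, 56.3, 92.7 and 95.0 in the 5 67NR arrays, and 128, 89.5, 79.9, 76.3 and 8.76 in the 5 normal arrays. All 4T1 arrays lay above all others, and normal replicate 5 lay far below its group. The other Clec4e probe set read 258, 237, 331 and 267 in 4T1, 119, 54.8, 78.8, 49.0 and 57.5 in 67NR, and 29.3, 82.1, 74.8, 73.5 and 53.6 in normal arrays. The groups were separated in the same way, but here normal replicate 1 was the lowest and replicate 5 was within the range of the rest. The mean intensity of 4T1 over normal lungs was 3.01 and 4.36 for these probe sets, and the log2 changes were 1.60 ± 0.40 and 1.92 ± 0.25 (SE). Without normal replicate 5 the change on the set used was 1.17. Between 67NR and normal lungs they were 0.21 ± 0.38 and 0.16 ± 0.23.

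Clec4d, which lies beside Clec4e and whose protein can pair with Mincle, stood at about the same difference from normal as Clec4e, with far less spread; which of these is the larger changed with the setting. It read 489, 466, 648 and 528 in 4T1, 207, 208, 203, 194 and 185 in 67NR, and 153, 124, 176, 158 and 163 in normal arrays. The groups formed 3 steps without overlap, since every 67NR array also stood above every normal array. The log2 change was 1.68 ± 0.096 (SE) between 4T1 and normal, 1.34 ± 0.096 between 4T1 and 67NR, and 0.34 ± 0.090 between 67NR and normal lungs. As ratios of mean intensity these were 3.44, 2.67 and 1.29. The Clec4d probe set carries the suffix that the manufacturer gives to probes that can match transcripts of more than 1 gene, and so does the brighter Clec4n probe set.

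Clec4n, the Dectin-2 gene and the next neighbour of Clec4d, did not share that difference. Its brighter probe set read 814, 745, 775 and 787 in 4T1, 857, 752, 1011, 868 and 609 in 67NR, and 759, 754, 761, 918 and 859 in normal arrays. The 4T1 arrays lay inside the 67NR range, with only replicate 2 below every normal array. The change was -0.050 ± 0.11 (SE) against normal and -0.051 ± 0.11 against 67NR lungs. The dimmer probe set read 426 to 505 in 4T1, 372 to 495 in 67NR and 345 to 478 in normal arrays, with changes of 0.088 ± 0.11 and 0.032 ± 0.11. On both probe sets the arrays of all 3 groups overlapped.

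Clec7a, the Dectin-1 gene, showed a small difference within wide spread. It read 2200, 1634, 2369 and 1901 in 4T1, 1711, 1650, 1650, 1556 and 1588 in 67NR, and 1739, 1463, 1328, 1804 and 1892 in normal arrays. Of the 4 4T1 arrays 3 stood above all 67NR and all normal arrays, while replicate 2 lay among them. The change was 0.30 ± 0.11 (SE) against either group and -0.00031 ± 0.11 between 67NR and normal lungs. Without 4T1 replicate 2 it was 0.39 against normal. The 67NR arrays were tight, with a coefficient of variation of 3.71% against 16.05% in 4T1 and 14.5% in normal lungs.

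**Figure D1:**
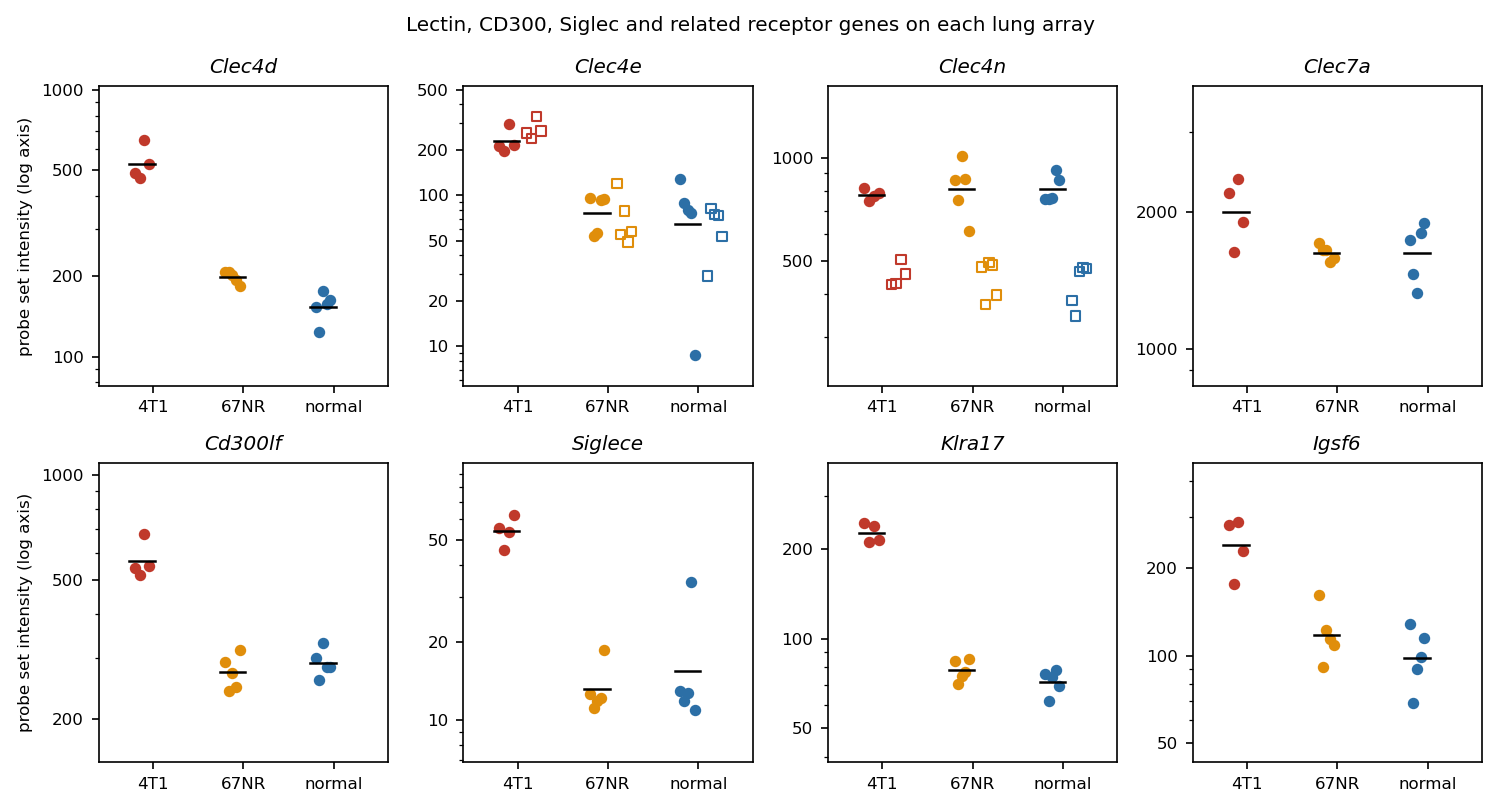
Intensity (vertical log axis, arbitrary scanner units) of each of the 8 receptor genes on each of 4 4T1, 5 67NR and 5 normal lung arrays, where filled circles are the probe set used for the gene, open squares the other probe set of Clec4e and Clec4n, and bars the group mean on the log2(intensity + 16) scale. In 6 panels all 4T1 points lie above all others, the exceptions being Clec4n and Clec7a.

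The inhibitory receptors were higher in 4T1 lungs as well. Cd300lf, whose protein binds phospholipids of dying cells and serves as the entry receptor of mouse norovirus, read 544, 516, 679 and 551 in 4T1, 292, 241, 272, 247 and 317 in 67NR, and 300, 259, 331, 283 and 281 in normal arrays. All 4T1 arrays lay above the rest, and the 67NR and normal arrays overlapped. The change was 0.94 ± 0.094 (SE) against normal and 1.02 ± 0.094 against 67NR, close to a doubling of mean intensity (ratios 1.97 and 2.09). Between 67NR and normal lungs it was -0.086 ± 0.089.

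Siglece, an inhibitory sialic acid receptor of neutrophils and macrophages, was dim. It read 55.5, 45.7, 53.5 and 62.1 in 4T1, 12.6, 11.1, 11.9, 12.2 and 18.7 in 67NR, and 12.96, 11.9, 12.7, 34.2 and 10.99 in normal arrays. The 4T1 arrays lay above all others, and normal replicate 4 and 67NR replicate 5 lay apart from their own groups. The ratio of mean intensities was 3.28 against normal and 4.07 against 67NR lungs, and on the log2(intensity + 16) scale the change was 1.15 ± 0.16 and 1.26 ± 0.16 (SE). Without normal replicate 4 the change against normal was 1.32. This gene's mean level lay at the 12.7th percentile of all genes, near the bottom of the scale, where the offset of 16 weighs most: with an offset of 1 the change was 1.78 and with 64 it was 0.56.

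Klra17 encodes Ly49Q, a Ly49 receptor found on plasmacytoid dendritic cells and neutrophils rather than on NK cells, and had the tightest groups of the 4 genes under the filter. It read 243, 210, 237 and 214 in 4T1, 83.8, 70.4, 74.8, 77.5 and 85.5 in 67NR, and 76.2, 61.5, 74.4, 78.6 and 69.3 in normal arrays. The lowest 4T1 array was far above the highest of the rest. The change was 1.46 ± 0.071 (SE) against normal, 1.36 ± 0.071 against 67NR and 0.10 ± 0.067 between 67NR and normal lungs. Its mean intensity in 4T1 was 3.14 times that of normal lungs. Igsf6 read 282, 177, 289 and 229 in 4T1, 162, 91.9, 123, 115 and 109 in 67NR, and 129, 68.9, 90.5, 99.1 and 115 in normal arrays. Its 4T1 arrays also stood above all others, by the narrow gap of 177 in 4T1 replicate 2 to 162 in 67NR replicate 1. The change was 1.16 ± 0.18 against normal, 0.93 ± 0.18 against 67NR and 0.23 ± 0.17 between 67NR and normal lungs.

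**Figure D2:**
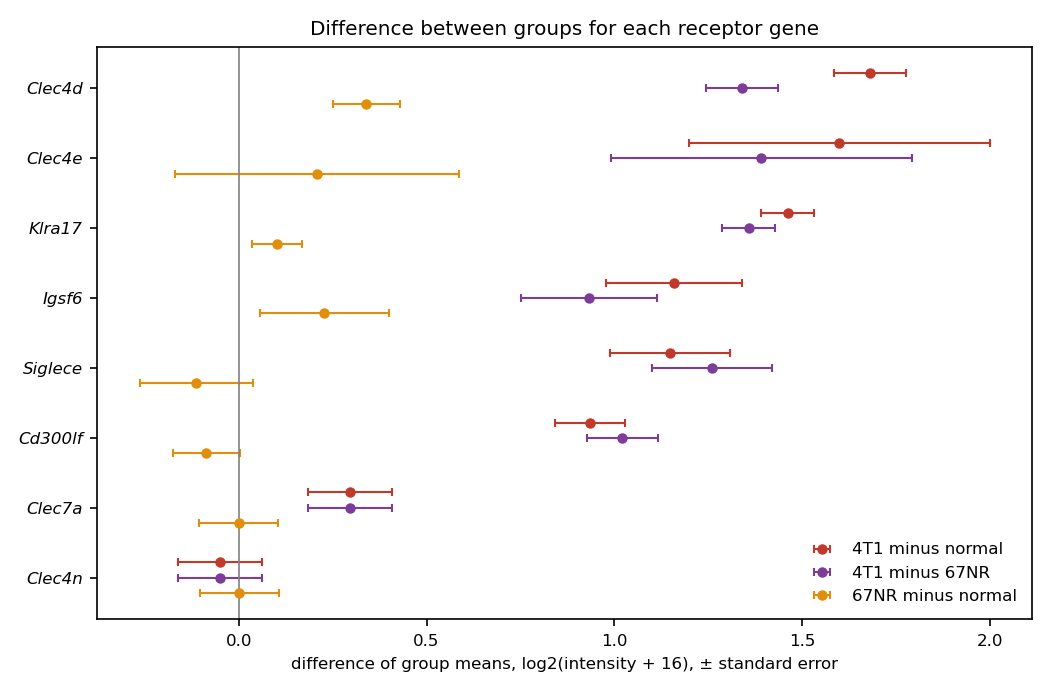
Difference of group means on the log2(intensity + 16) scale (horizontal axis) for each receptor gene, with bars of 1 standard error from the model over 14 arrays. The 4T1 differences run from -0.050 for Clec4n to 1.68 for Clec4d against normal lung, and the 67NR differences from normal lie between -0.11 and 0.34.

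Read together, 6 of the 8 genes had all 4T1 arrays above all normal arrays, a separation found for 1.21% of all 18194 genes. The share was taken over all genes because 4 of the 6 lay under the level filter. The same 6 had all 4T1 arrays above all 67NR arrays, against 1.77% of all genes, and only Clec4d had all 67NR arrays above all normal arrays, against 0.676%. The median change of the 8 genes was 1.15 between 4T1 and normal, 1.14 between 4T1 and 67NR, and 0.052 between 67NR and normal lungs, where the medians of all 18194 genes were -0.0023, -0.0016 and -0.0011. Both 4T1 comparisons share the 4T1 arrays and both normal comparisons the normal arrays, so they are not independent of each other.

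Among the 4T1 lungs the 8 genes did not vary independently of the array. Replicate 2 had the lowest value of all 8 genes (for Clec4e and Clec4n on the probe set used), and replicate 3 had the highest value of 5, which were Clec4d, Clec4e, Clec7a, Cd300lf and Igsf6. Replicate 2 also had the lowest neutrophil and monocyte marker scores of the 4 (0.83 against 1.16 to 1.33, and -0.25 against -0.053 to 0.21). A score is the mean log2 value of a list's tested genes after each gene's mean over all arrays is taken off. Without 4T1 replicate 2 the median change of the 8 genes against normal was 1.25, Igsf6 stood at 1.30 and Clec4d at 1.74. The arrays numbered 2 in the 67NR and normal groups also had the lowest value of 5 of the 8 genes in each group. They had the lowest neutrophil scores of their groups too (-0.61 and -0.75), but not the lowest monocyte scores. Whether arrays of the same number share a technical step was not tested.

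Neighbours on the chromosome had unlike values. In the RefSeq gene order of mouse chromosome 6, Clec4n, Clec4d and Clec4e are consecutive protein-coding genes, and the 4T1 differences from normal were -0.050, 1.68 and 1.60. Clec4a2 and Clec4b1, further along on the side of Clec4n, were at 0.23 ± 0.11 and -0.076 ± 0.078 (SE). Clec7a lies between Clec1a, at 0.21 ± 0.072, and Olr1, at 0.0043 ± 0.13. The measured NK complex genes between Olr1 and Klra17, from Klre1 to Klrc1, lay between -0.028 and 0.11, while Klra17 stood at 1.46. Neighbours without a probe set of their own were not analysed here.

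**Figure D3:**
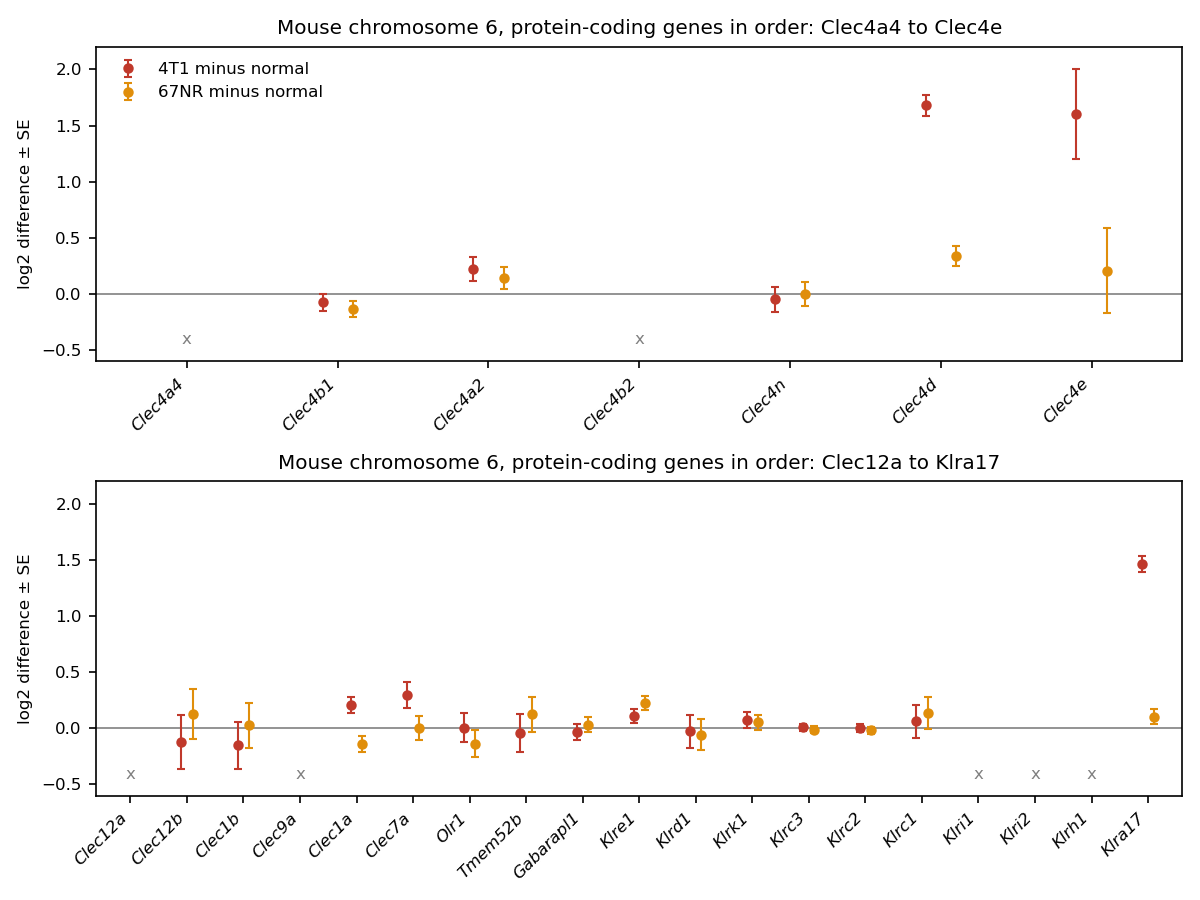
Protein-coding genes of 2 stretches of mouse chromosome 6 in their order (horizontal axis, not to distance), with the log2 difference from normal lung of 4T1 and of 67NR lungs and bars of 1 SE; a grey x marks a gene with no probe set here. Clec4d, Clec4e and Klra17 stand above 1.4 in 4T1 lungs, and every other measured gene is at or below 0.30.

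The relatives and partners of these receptors, none of them a member, could be tested. Of 154 listed genes 104 had a probe set and 69 were tested, and limma called 2 higher in 4T1 against normal and 3 against 67NR lungs, with 0 called lower in either. Over all genes tested limma called 0.412% higher and 0% lower between 4T1 and normal, and 0.559% higher and 0.202% lower between 4T1 and 67NR. At an unadjusted limma p under 0.05 there were 20 and 21 of the 69 tested relatives and partners. Over all 10916 genes tested there were 716 against normal and 1358 against 67NR lungs. Between 67NR and normal lungs limma called 0% of genes higher and 0% lower, with a smallest adjusted p of 0.207. There, 997 of the 10916 genes and 4 of the 69 relatives and partners had an unadjusted p under 0.05. Pirb, an inhibitory immunoglobulin-like receptor of myeloid cells, was higher than normal by 0.85 ± 0.13 (SE; limma adjusted p = 0.00619) and higher than 67NR by 0.66 (limma adjusted p = 0.0357). Il1b, the cytokine interleukin 1 beta that Syk and Card9 signalling can induce, was higher by 1.74 ± 0.23 (limma adjusted p = 0.00117) and 1.56 (limma adjusted p = 0.0037); it was known from earlier results of these arrays to be higher. Clec1a, a C-type lectin of endothelial and myeloid cells, was higher than in 67NR lungs by 0.35 ± 0.072 (limma adjusted p = 0.0398). That call was kept in 9 of 26 alternative settings, the Pirb calls in 24 against normal and 14 against 67NR, and the Il1b calls in 26 of 26 for both.

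By family, 0 of the 14 tested other C-type lectin receptors was called against normal lungs, with a median change of -0.018. The 8 tested other CD300 and TREM receptors had a median of 0.22, from -0.063 to 0.72, with 0 called. The 7 tested other paired immunoglobulin receptors had a median of 0.30, from -0.098 to 0.85, and Pirb was the 1 called. The 6 tested other Siglecs had a median of -0.015 with 0 called. Siglece stood at 1.15, but the members had been chosen by their values and taken out of these lists. A gap between members and relatives thus follows in part from that choice. Of 14 measured relatives of Klra17 in the Ly49 and NK complex families 3 were tested and 0 called. The 12 tested genes of the activating arm, adaptors and kinases, had a median of 0.13 and 0 calls, among them Fcer1g at 0.63 ± 0.16 (SE; limma adjusted p = 0.182), Tyrobp, a second such adaptor, at 0.49 ± 0.11 (limma adjusted p = 0.0912), and Syk at 0.40 ± 0.12 (limma adjusted p = 0.372). Card9 was not analysed here. Among the 9 phosphatases and inhibitors 0 were called, and Ptpn6, the phosphatase the inhibitory receptors recruit, was at 0.26 ± 0.14 (limma adjusted p = 0.856). The counts moved with 4T1 replicate 2: without it limma called 7 of the relatives and partners higher than normal, Fcer1g and Tyrobp among them, and 6 higher than 67NR.

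**Figure D4:**
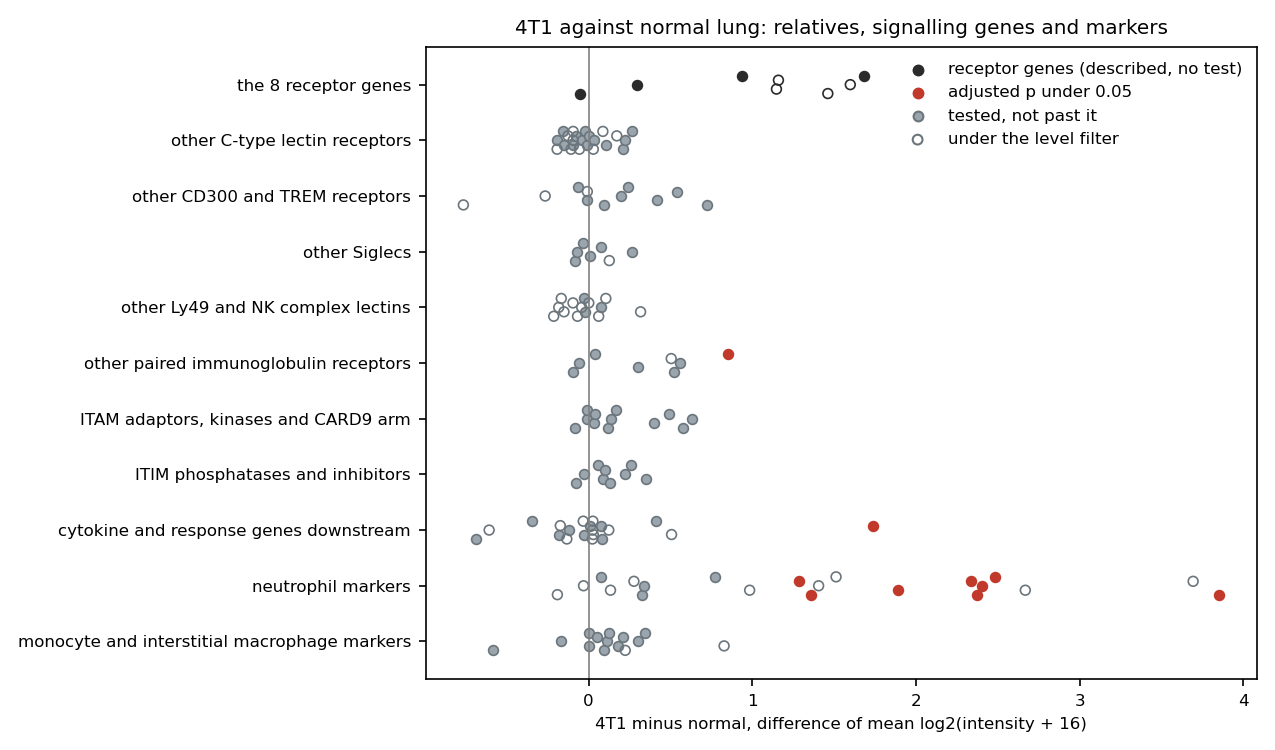
Difference of mean log2(intensity + 16) between 4T1 and normal lungs (horizontal axis) for the 8 receptor genes and for lists of their relatives, partners and cell markers; each point is a gene, black for the receptor genes, which were not tested, and for the rest red where limma's adjusted p was under 0.05, grey where tested and not past it; open points lay under the level filter. Of the 8 receptor genes 6 lie at 0.94 or above, while the other C-type lectins, Siglecs and Ly49 genes lie near 0. Tested CD300 and TREM receptors run from -0.063 to 0.72 and tested paired immunoglobulin receptors from -0.098 to 0.85. The tested neutrophil markers reach 3.85. The receptor genes were chosen by their values in these arrays, so their distance from the relatives is only a description.

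Markers of neutrophils, which carry several of these receptors, moved with the same lungs. All 21 measured neutrophil markers summed to 30216 to 41628 intensity units in 4T1, 10499 to 14341 in 67NR and 9191 to 13599 in normal arrays, with no overlap of 4T1 with the rest. Of 12 tested neutrophil markers limma called 8 higher against normal and 10 higher against 67NR lungs in the 4T1 arrays. Over all genes tested it called 0.412% and 0.559% higher. The list was drawn up with earlier results of these arrays known, and the level filter used the mean over all arrays, 4T1 included. These counts are therefore a description and not an independent test. Against normal lungs S100a8 and S100a9, the calprotectin subunits, were at 2.38 and 2.48, and the receptors Cxcr2 and Csf3r at 2.41 and 1.89. Across the 12 tested markers the change ran from 0.073 to 3.85, with a median of 1.62, so the named markers lay above that median. Against 67NR lungs it ran from -0.14 to 3.71. The 6 separated receptor genes ranged from 0.94 to 1.68 on the probe sets used, and the part of neutrophils in the receptor results was not tested. Monocyte and interstitial macrophage markers, 12 tested and 0 called, summed to 9567 to 12375 in 4T1, 10165 to 13296 in 67NR and 9484 to 12620 in normal arrays. Alveolar macrophage, dendritic cell, lymphocyte and lung tissue markers had 0 calls in any comparison, as did the 2 tested eosinophil, basophil and mast cell markers. The 10 measured markers of that last list summed to 687 to 967 in 4T1, 686 to 770 in 67NR and 582 to 662 in normal arrays. The sums of both tumour groups thus lay above those of normal lungs, but only 2 of the 10 markers passed the level filter. Those 2 differed from normal by 0.034 and 0.12 in 4T1 and by 0.096 and 0.10 in 67NR lungs. How often sums of other genes separate in this way was not tested.

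Differences between lungs of the same group were set against these marker scores after each group's mean was taken off. How far the choice of the genes drew on such differences is not known. Over 14 arrays and 16 relations (8 genes by 2 scores), 3 passed an adjusted permutation p of 0.05, with arrays permuted within groups. Clec7a went with the monocyte and macrophage score (Pearson r = 0.90, Spearman rho = 0.85; permutation p = 0.00054 and 0.00125, adjusted 0.00656 and 0.01). So did Igsf6 (r = 0.88, rho = 0.89; permutation p = 0.00082 and 0.00077, adjusted 0.00656 and 0.01). Igsf6 also went with the neutrophil score (r = 0.78, rho = 0.75, permutation p = 0.00509 and 0.00689, adjusted 0.0272 and 0.0368). The 2 scores tended to rise and fall together within groups, so the 2 relations of Igsf6 are not separate. Without the 2 arrays farthest from the median of the score, r was 0.94, 0.83 and 0.70. Clec4d and Cd300lf had r of 0.45 and 0.25 with the neutrophil score (adjusted permutation p = 0.331 and 0.523), and Klra17 and Siglece 0.40 and 0.22 (0.381 and 0.550), which at 14 arrays does not show that they were unrelated. With the monocyte score Klra17 had r = 0.65, and with the neutrophil score Clec7a had 0.63 (adjusted permutation p = 0.102 for both). Clec4n had rho = 0.67 with the neutrophil score (adjusted permutation p = 0.0524). The labels give no batch or date, so no within-batch values could be had.

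**Figure D5:**
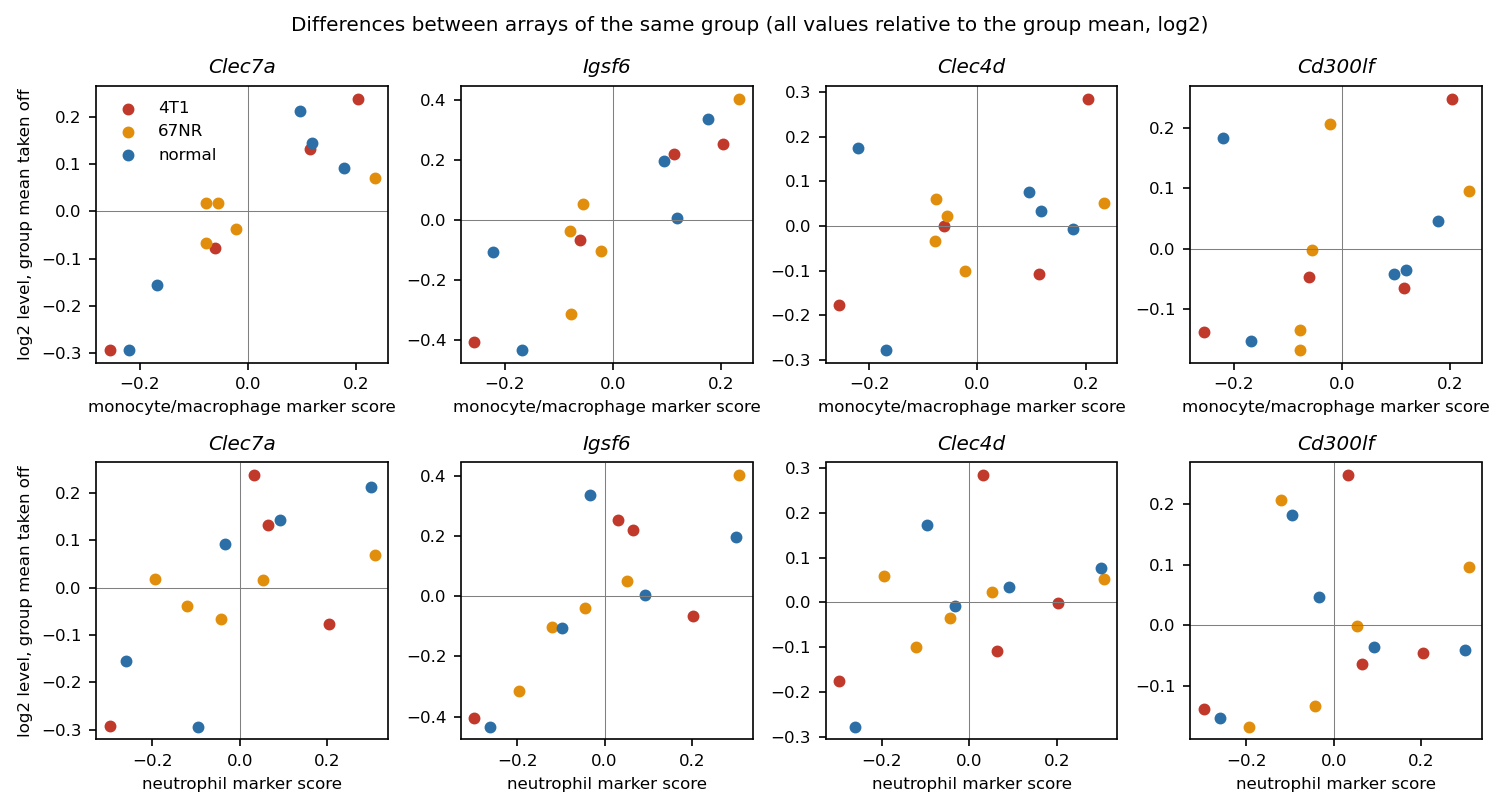
Level of Clec7a, Igsf6, Clec4d and Cd300lf (vertical axes, log2) against the monocyte and macrophage marker score (top row) and the neutrophil marker score (bottom row), each value relative to its group's mean, with 1 point per array. Clec7a and Igsf6 rise along the monocyte score with r = 0.90 and 0.88, and Clec4d and Cd300lf spread more widely, with r = 0.45 and 0.25 on the neutrophil score.

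On the same within-group scale the 28 pairs of the 8 genes had correlations from -0.29 to 0.72 over 14 arrays, with a median of 0.29, and Clec7a with Igsf6 was the highest pair. Clec4d with Clec4e, on the Clec4e probe set used, was at -0.089, although both were higher in every 4T1 array. That value includes normal replicate 5, which lay far below its group on this Clec4e probe set only. A correlation without that array was not taken, so the value does not show that the pair was unrelated. The tested genes most like each member were, with their r, Cyc1 (0.87) and Igsf23 (0.87) for Clec4d, Anxa5 (0.85) and Cnnm4 (0.84) for Clec4e, and Nmi (0.95) and Fam111a (0.95) for Clec7a. For Cd300lf they were Ndfip2 (0.92) and Acp6 (0.86), for Siglece Fgfr2 (0.88) and Srcin1 (0.86), for Klra17 Eif3h (0.93) and Oga (0.85), and for Igsf6 Casp4 (0.95) and Fyb (0.94). Those of Clec4n were the heart muscle genes Actc1 (0.95) and Ankrd1 (0.94). Actc1 read 2481 to 2658 in 4T1, 1827 to 3194 in 67NR and 2156 to 2769 in normal arrays, and the part of heart tissue in the Clec4n values was not tested. Each such gene was the best of the tested genes on the same 14 arrays, so these likenesses are descriptions without a p. In normal lungs the highest reading of Siglece was 34.2 against a median of 12.7. That of Fgfr2 was 3117 against 1545, and that of Srcin1 was 291 against 178. The part of single arrays in these likenesses was not tested.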

How the data were processed

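RNA of 14 lung samples (4 4T1, 5 67NR, 5 normal, grouped by title and injected cell line) was labelled from 3 µg of total RNA and read on 1 array each, per the labels' protocols. The deposited values are linear probe set intensities; their summary and normalisation by the authors are not given in the sources used here. Of 45101 probe sets, 34958 carried 1 gene symbol in the platform annotation of 2016, 932 carried several and 9211 none. The probe set with the highest mean was kept for each of 18194 genes, and log2(intensity + 16) was fitted with limma 3.58.1 in R 4.3.3 (lmFit, eBayes, 1 mean per group, 11 residual degrees of freedom). Genes with a mean above 7.35 were tested, two-sided, with Benjamini-Hochberg adjustment over 10916 genes at 0.05.

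The 8 members, the lists and the tests were chosen with earlier results of these data known, and the promoter motifs after the sequences were seen. Named were all members, the 2 genes most alike to each, called relatives, a set of adaptors, and neutrophil markers as a measure of cell content; chromosome neighbours were named by position. Within-group relations used 100000 permutations in Python 3.11.15. The fit was tested on simulated data; its acceptance limit was loosened after a first version, which asked for every planted change, was not met. Alternatives changed the offset, filter, probe set rule, scaling, variance model, arrays used and replicate block. No detection calls were used, and the number of arrays limits the precision.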

Additional observations from a re-analysis of the deposited data

Results flagged for a closer look

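Of 30 groups of 4 or 5 arrays (10 probe sets in 3 groups), 3 held an array whose gap to its nearest neighbour took up more of the group's range than Dixon's 95% limit for its size allows (0.71 for the 5-array groups all 3 came from); chance alone marks about 1 in 20 groups. Gaps and ranges were taken on the log2 scale of the fit. The readings are given here as intensities, to which the limit was not applied. Normal replicate 5 read 8.756 on the Clec4e probe set used for the gene, where the rest of its group read 76.3 to 128. On the log2 scale it stood at 4.63 against 6.53 to 7.17, and the gap was 0.747 of the range. On the other Clec4e probe set the same array read 53.6, inside its group's range. For Siglece, normal replicate 4 read 34.2 against 10.99 to 12.96 in the other normal arrays, a gap of 0.887 of the range, and 67NR replicate 5 read 18.73 against 11.1 to 12.6, a gap of 0.788. Both Siglece values lay below the lowest 4T1 array, at 45.7, so the separation of the groups did not rest on them.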

How the results depend on the processing

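Over 26 alternative settings the 8 members' 624 values gave 614 that moved by less than 1 SD between replicates, 10 that moved further, all under another offset. The sign turned in some settings for Clec4n in all 3 comparisons and for Clec4e, Clec7a and Siglece between 67NR and normal lungs, values within 1 SE of 0, and for no other. The members' median change from normal lung in 4T1 was 1.46 with an offset of 1 and 0.87 with 64, and that from 67NR was 0.83 with 64; leaving out each array in turn gave 1.08 to 1.25 and 1.09 to 1.19, and 0.0011 to 0.092 for 67NR against normal. Genes called between 4T1 and normal were 26 in the upper 40% of level and 29 with only the compared groups (32 to 66 leaving out 1 array). Between 67NR and normal they were 1 with no filter, 1 with every probe set and 11 without 67NR replicates 1 and 3, which earlier results of these arrays set apart by clock genes (0 leaving out 1 array). Between 4T1 and 67NR they were 50 with only the compared groups and 48 without 67NR replicates 1 and 3 (41 to 168 leaving out 1 array, 168 without 67NR replicate 5). Relatives and signalling genes called against normal were 1 in the upper 40%, 1 with only the compared groups and 5 with the replicate block (2 to 7 leaving out 1 array); against 67NR they were 1 with no filter and 1 with every probe set, no filter and 1 without 67NR replicates 1 and 3 (1 to 6 leaving out 1 array).

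The 13 pairs of same-numbered arrays from unlike groups had correlations of their deviations from -0.34 to 0.22, 3 of them over 0.1. Pairs of unlike number were not taken for comparison, so these values do not show whether the replicate numbers pair the samples. The replicate block called 45 genes between 4T1 and normal and 57 between 4T1 and 67NR. Depth does not apply to arrays; Siglece and Clec4e are dim, and no detection call tells their lowest values from background.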
